A study of Mus musculus with 4 samples.

Results

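Hippocampi of aged mice, 18 months old, with 1 knockout allele of Rp58 (hetero-KO) were compared with those of wild-type (WT) mice. The comparison rests on 2 of the study's 4 one-colour expression arrays, which were chosen by their titles and genotype labels. The other 2 arrays hold the same genotypes at 4 months, and their values stand beside the results as a description. Each array received a mixture of the RNA of 3 samples, of which 200 ng was labelled with Cy3, so every group is 1 pooled array. No difference below therefore has a replicate check, a test or a spread among mice. The older groups have an age label of 18 months, a title of 1.5 years and a description of 12 to 18 months. The sources used here do not name the strain, the sex, littermate status or the deleted stretch of the gene, and whether the allele is a null is unknown.

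Rp58, now named Zbtb18, encodes a transcriptional repressor with a BTB domain and zinc fingers. It binds an E-box-like site in DNA and is known for silencing proneural and Id genes while cortical and hippocampal glutamatergic neurons form. In the adult hippocampus it stays expressed in excitatory neurons, and both loss and reduced dosage of the gene are known to affect the formation of the cortex and the dentate gyrus.

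The largest positive differences among all measured genes lay beside the targeted gene itself. Levels are given as the processed signal of a probe divided by the 75th percentile of its array, so a level of 1 is the array's upper quartile. The single Zbtb18 probe (chromosome 1, 179380753 to 179380812, plus strand, mouse build mm9) read 18.7 for WT and 21.3 for hetero-KO. On the log2 scale hetero-KO was 0.19 above WT, within 1 spot error (0.20, computed from the error column of the scanner files). At 4 months the levels were 17.4 and 15.2, so hetero-KO was on the higher side at one age and on the lower side at the other. The probe did not show a reduced level of the targeted transcript in old hetero-KO mice, and a probe outside the deleted stretch checks nothing about the labels. A pair of transcripts without assigned function differed far more. Both were recognised by probes on the plus strand, the strand of Zbtb18, at higher coordinates, and the probes are shown because they carry those differences. The files used here give them no exon or UTR annotation.
Gm29856: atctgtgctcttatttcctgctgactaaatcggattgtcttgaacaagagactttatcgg
AK156859: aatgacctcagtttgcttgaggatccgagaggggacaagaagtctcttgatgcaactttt
The Gm29856 probe (chromosome 1, 179391247 to 179391306) lay 10.5 kb from the Zbtb18 probe and the AK156859 probe (179406323 to 179406382) 25.6 kb from it. Gm29856 had a level of 0.0782 in WT against 2.09 in hetero-KO, a 26.7-fold difference (log2 4.74, spot error 0.21). At 4 months its levels were 0.0739 and 1.58. AK156859 had 0.0864 in WT against 1.65 in hetero-KO, a 19.2-fold difference (log2 4.26), and 0.0705 and 0.966 at 4 months. For both transcripts the hetero-KO arrays of both ages were high and the WT arrays of both ages low. The other probes within 100 kb, AK048867 and LOC102642028 on the minus strand, had log2 differences of −0.12 and 0.19.

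Markers of the hippocampal fields were measured on both 18-month arrays, and the signal of the 2 arrays was alike. The arrays' 75th percentiles were close, at 1747 (WT) and 1720 (hetero-KO), and 79.0% and 77.9% of spots were well above background. All 22 dentate granule, 14 CA1 and 18 CA3 markers were measured on both, among them Prox1 (levels 2.25 and 2.03), the granule cell regulator. Being measured does not set the hippocampus apart, as 22 thalamus and habenula and 23 striatum markers were measured too. Y-linked genes were close between the arrays: Eif2s3y had levels of 1.29 in WT against 1.32 in hetero-KO, and Uty 0.395 and 0.382. Xist, which coats the inactive X chromosome of females, was not well above background on either. The 4-month pair was not matched in this way, with Eif2s3y at 0.669 in WT and 0.00167, not well above background, in hetero-KO. Xist was well above background on both 4-month arrays, at 0.163 in WT and 0.229 in hetero-KO. By these genes, the sex makeup of the pools differed between the ages and within the 4-month pair. That makeup cannot be told apart from age wherever the 2 ages are set side by side below. All 4 arrays shared 1 slide.

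Of 37295 genes on the array, 27609 were measured on both 18-month arrays, which means that at least 50% of the spots of their probe were well above background. Their levels in the 2 pools had a correlation of log2 values of 0.996 across genes, which are not independent replicates. The median log2 difference was 0.00 and the SD across genes 0.29, with 95% of genes between −0.59 and 0.54. At least 2-fold higher in hetero-KO were 149 genes (0.54%) and at least 2-fold lower 165 (0.598%), together 1.14%. Of these, 81 higher and 100 lower genes had an official symbol. Whether 2 pools of the same genotype would differ in as many genes is unknown, as no group had a second array.

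The share of 2-fold differences was highest among dim genes. Among 4200 genes with a mean level under 0.03, 3.48% were at least 2-fold apart, and among 4768 genes from 0.03 to 0.1, 1.89%. From 0.1 to 1 it was 0.775% of 8649 genes, and from 1 to 8, 0.153% of 7199 genes, with 3 higher and 8 lower. None of 2793 genes at a level of 8 or more was 2-fold apart. For 299 probes printed in 10 copies on each array, the SD of log2 signals among copies was 0.032 in WT against 0.031 in hetero-KO at the median. The SD of the difference between the arrays across these probes was 0.13. The scanner files' own spot error of a difference was larger, 0.20 at the median over all measured genes. Differences near or below these values are within the measurement error, and the variation between mice was not measured. With another background correction (normexp, offset 50), which pulls dim genes together, 25 higher and 41 lower genes passed 2-fold, and 149 of the 149 higher and 164 of the 165 lower genes kept their direction.

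The authors' deposited table of all samples gave other 18-month values. Its 4-month columns follow the scanner files (correlation of log2 values 1), while its 18-month columns match neither 18-month file closely (correlation at most 0.985). Across the 27609 genes, differences from the table had a correlation of 0.04 with those from the scanner files. Of the 149 higher genes 69 were higher in the table, and of the 165 lower genes 83 were lower. The table's median difference over all genes was shifted by 0.006 from that of the scanner files (−0.002). Both directions were thus about equally frequent in the table, and these sign counts are near what unrelated differences would give. At least 2-fold in the same direction there were 10 and 9 genes, among them Gm29856 (log2 3.98 in the authors' deposited table), AK156859 (2.12), Slamf8 (1.1), F5 (−1.66), Wfdc2 (−1.33) and Tex22 (−1.31). The share of all genes passing 2-fold in the table is not given beside these counts, so they are a description. The table also gave the Y-linked genes a median difference of −6.16, where the scanner files gave −0.01. Which RNA those columns hold is not known, and all values that follow come from the scanner files.

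**Figure D1:**
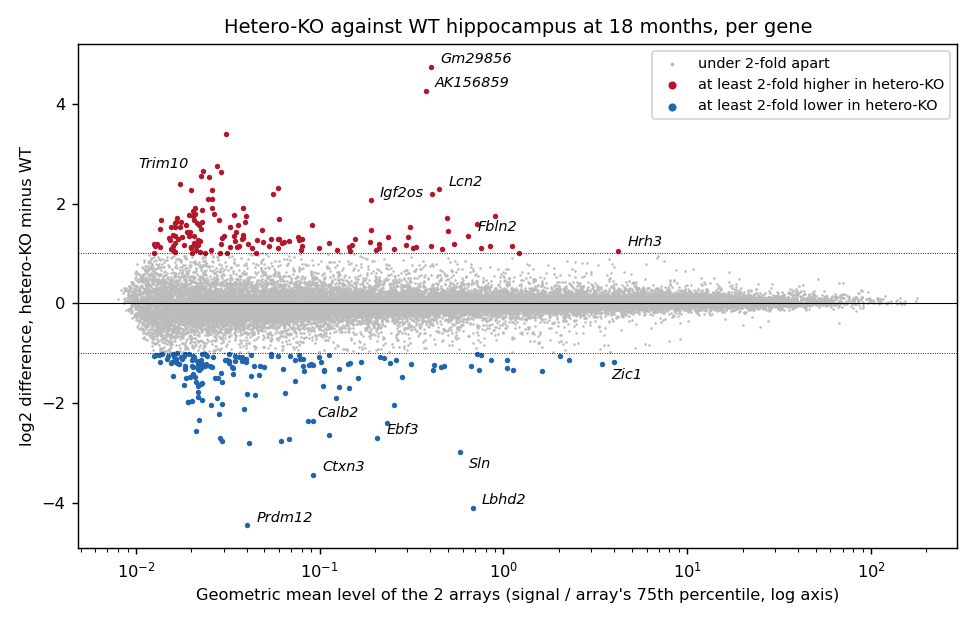
Log2 difference of hetero-KO from WT at 18 months (vertical axis) against the geometric mean level of the 2 arrays (horizontal, log axis), 1 point for each of 27609 genes measured on both; red and blue points are the 149 genes at least 2-fold higher and the 165 at least 2-fold lower. Most coloured points lie at levels under 0.1, and Gm29856 and AK156859 stand at the top with log2 differences of 4.74 and 4.26.

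The named genes higher in hetero-KO were of many kinds, and many were dim. Lcn2, a secreted lipocalin that binds iron carriers, had a level of 0.202 in WT against 0.987 in hetero-KO (4.88-fold, log2 2.29, spot error 0.20), against 0.147 and 0.116 at 4 months. Both Lcn2 probes were measured, and the mean of their log2 differences was 2.62. Cxcl1, a neutrophil-attracting chemokine, was at 0.0117 and 0.0567 (log2 2.28), and Il1f10, an interleukin 1 family cytokine, at 0.00759 and 0.0399 (2.39). For these 3 genes only the hetero-KO array of 18 months was high. Prg4, the lubricant proteoglycan lubricin, had levels of 0.0266 and 0.132 (log2 2.30), and Tgm1, a transglutaminase that also marks reactive astrocytes, 0.0108 and 0.0410 (1.92). Trim10, a ubiquitin ligase of the red cell lineage, had the largest difference among official symbols, 0.00929 and 0.0583 (log2 2.65, spot error 0.31). It was dim on all arrays, as were Hormad1 (1.80), Olfr1101 (1.75), Alox12e (1.74), Ankrd60 (1.63), Pirt (1.63) and Banf2os (1.58). In the authors' deposited table Lcn2 (−0.36), Cxcl1 (−0.44), Il1f10 (−0.19), Prg4 (−0.78) and Tgm1 (−0.67) had the other direction. With the normexp background Cxcl1 (0.74), Il1f10 (0.65), Tgm1 (0.57) and Trim10 (0.90) were no longer 2-fold apart.

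Igf2os, an antisense transcript of the imprinted Igf2 locus, was high on both hetero-KO arrays. Its levels were 0.0925 in WT against 0.387 in hetero-KO at 18 months (4.19-fold, log2 2.07) and 0.0845 and 0.304 at 4 months. Its sense partner Igf2 had levels of 1.33 and 0.993 at 18 months (log2 −0.42). Spaca4, a sperm surface protein gene, stood at 0.272 in WT against 0.892 in hetero-KO (log2 1.71), but the 4-month arrays were at 0.794 and 0.723, so the old WT array was the low one. Ttn, the giant muscle protein titin, was higher by 2.19 with 1 of its 3 measured probes, while the other measured probes gave −0.23 and −0.83.

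Few genes of good signal were 2-fold higher. Hrh3, the histamine H3 receptor that restrains transmitter release, had a level of 2.94 in WT against 6.05 in hetero-KO (2.06-fold, log2 1.04), with 3.86 and 7.85 at 4 months. Both of its probes were measured, and its hetero-KO levels were above its WT levels at both ages. Fbln2, an extracellular matrix fibulin, went from 0.404 in WT to 1.03 in hetero-KO (2.54-fold, log2 1.35), and from 0.425 to 1.25 at 4 months. The GABA transporter Slc6a13 (0.571 and 1.26, log2 1.14) and the retinoic acid enzyme Aldh1a2 (0.514 and 1.1, log2 1.1), both of the meninges, were lower in hetero-KO at 4 months (−0.32 and −0.31). Fhl2, a LIM-domain adaptor, had levels of 4.95 and 9.58 (log2 0.95), the laminin receptor subunit Itga7 5.0 and 9.42 (0.91), the connexin Gjb2 0.816 and 1.53 (0.90) and the B-cell linker Blnk 1.64 and 2.97 (0.85). Robo2, a receptor for the axon guidance cue Slit, was higher by 1.15 with 1 probe, but the mean over its 7 measured probes was 0.18. Syt10, a synaptotagmin, was higher by 1.0 with 1 probe (0.858 and 1.72) and by 0.50 as the mean of both, and it was far lower on the 4-month arrays (0.204 and 0.112).

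The named genes lower in hetero-KO included several with their highest level on the WT array of 18 months. Lbhd2 had a level of 2.83 in WT against 0.165 in hetero-KO (17.1-fold, log2 −4.10, spot error 0.20), against 0.315 and 0.188 at 4 months. Sln, sarcolipin, a regulator of the calcium pump, had 1.63 in WT against 0.206 in hetero-KO (7.91-fold, log2 −2.98), against 0.209 and 0.265 at 4 months. Ebf3, a helix-loop-helix factor of neuronal differentiation, had 0.526 and 0.0808 (log2 −2.70), against 0.196 and 0.170. In these 3 genes old WT was the highest array at a distance from the others. Ctxn3, cortexin 3, had 0.303 and 0.0278 (log2 −3.44), between which the 4-month levels of 0.0900 and 0.0731 lay. Prdm12, a factor of sensory neurons, had the largest negative difference, with 0.189 in WT against 0.00863 in hetero-KO (21.9-fold, log2 −4.45, spot error 0.35); its 4-month levels were 0.0423 and 0.0154.

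Hormone genes and a channel gene followed. Growth hormone, Gh, had a level of 0.161 in WT against 0.0238 in hetero-KO (log2 −2.75) and Cga, the alpha subunit of glycoprotein hormones, 0.0805 and 0.0185 (−2.12). On the 4-month arrays Gh was at 0.0109 and 0.0267. The calcium-activated chloride channel Ano2 had 0.209 and 0.0406 (−2.37). Cyp2a22 (−2.34), the phospholipase relative Pla2g12b (−2.22) and the pseudogene Sfta3-ps (−2.05) were dim in hetero-KO. For Gh, Cga and Ano2 the WT array of 18 months was again the high one.

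For other lower genes the hetero-KO array of 18 months was the low one. Calb2, the calcium-binding protein calretinin, had a level of 0.195 in WT against 0.0380 in hetero-KO (5.14-fold, log2 −2.36), against 0.152 and 0.131 at 4 months. Igfbpl1, a gene of immature neurons, had 0.174 and 0.0263 (−2.73), against 0.108 and 0.116, and the mean over its 2 probes was −1.98.

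**Figure D2:**
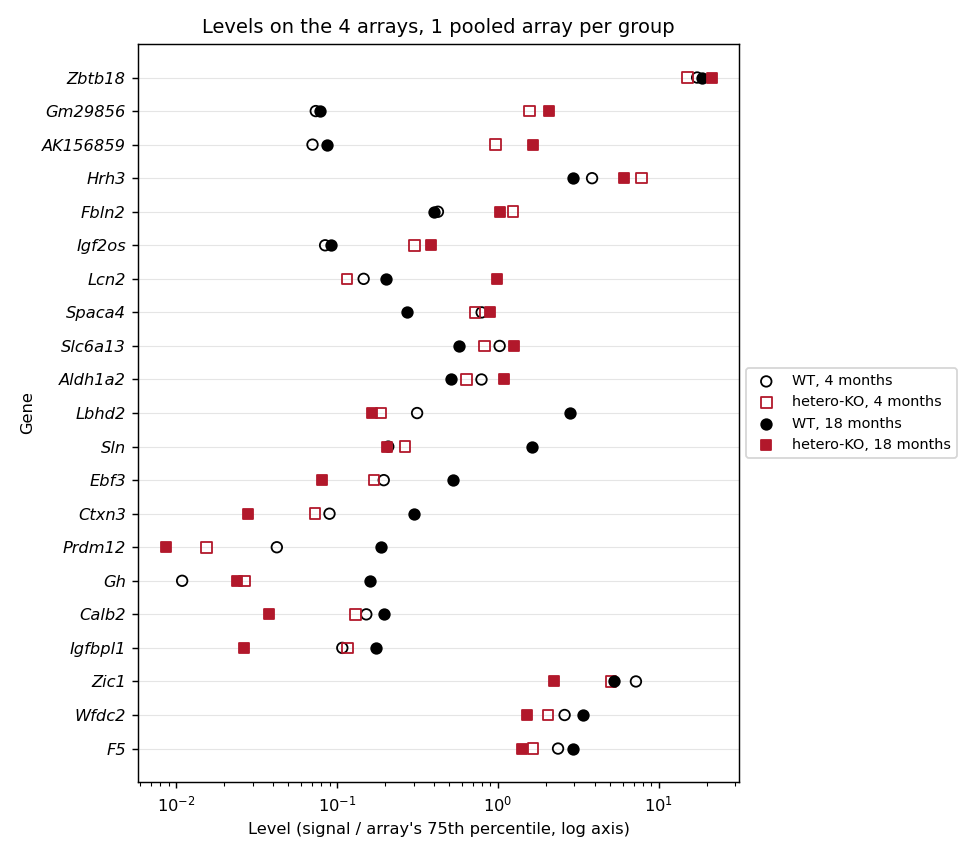
Levels of 21 named genes (signal over the array's 75th percentile, log axis) on the 4 arrays, with circles for WT, squares for hetero-KO, open symbols for 4 months and filled ones for 18 months; each symbol is 1 pooled array, so there are no error bars. Gm29856, AK156859, Hrh3, Fbln2 and Igf2os separate by genotype at both ages, while for Lbhd2, Sln and Ebf3 the filled WT circle is the highest.

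The lower genes with a level of at least 1 on either array included, besides Lbhd2 and Sln, several of moderate fold. Zic1, a zinc finger factor of midline structures, had a level of 5.24 in WT against 2.24 in hetero-KO (log2 −1.22), with 7.23 and 5.06 at 4 months. Wfdc2, an epithelial secreted protease inhibitor, had 3.38 and 1.53 (−1.14), F5, coagulation factor V, 2.95 and 1.41 (−1.07), and Smim22 1.27 and 0.581 (−1.13). These 4 genes were lower at 4 months as well, by 0.35 to 0.62 on the log2 scale. Tex22, a testis-expressed gene, had 1.18 and 0.463 (−1.35; −0.97 at 4 months). The lymphoid chemokine Ccl21a had 1.79 and 0.711 (−1.33) and Fam205a2 1.56 and 0.703 (−1.15); their 4-month differences were 0.19 and −0.08. Ccl21a has near-identical gene copies, so its probe may read several. Wdfy1 was lower by 1.36 with 1 probe and by 0.77 as the mean of 3, of which 1 gave 0.01.

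For genes well above background on 1 array alone, the fold is a lower bound. It is taken against either the lowest level called above background on the dim array or the probe's level there, whichever is larger. There were 580 such genes in hetero-KO and 1000 in WT. Eomes, a T-box factor of intermediate progenitors, mitral cells and Cajal-Retzius cells, was lower in hetero-KO by at least 17.2-fold, with levels of 0.142 in WT against 0.00577 in hetero-KO. At 4 months it was above background in both genotypes, at 0.0213 and 0.0226. The Ebf2 factor was at least 10.6-fold lower, Zar1, a maternal RNA-binding factor, at least 8.87-fold, Ceacam3 at least 8.86-fold and the protease Corin at least 8.43-fold. In the other direction Hoxa2, a hindbrain patterning factor, was at least 15.4-fold higher (0.00163 in WT against 0.116 in hetero-KO). Olfr384 was at least 10.1-fold, the tenomodulin gene Tnmd at least 9.39-fold, Spata16 at least 8.52-fold and Ifi202b, an interferon-inducible DNA sensor, at least 7.92-fold higher. Of these 10 genes, Ifi202b and Tnmd were above background in hetero-KO and not in WT at 4 months too. Ifi202b then had levels of 0.00115 in WT against 0.0298 in hetero-KO. Tnmd had 0.00568 and 0.00829, both near the lowest levels called above background on those arrays (0.00573 and 0.00668).

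Gene lists for cell types and pathways were then read by their medians, beside the median of 0.00 and the 49.4% of genes higher over all 27609. Of 62 lists, 10 had a median log2 difference of at least 0.2 and 3 of at most −0.2, while 33 lay within 0.1 of zero. In bulk tissue, fewer cells of a type and less RNA per cell cannot be told apart, and neighbouring tissue in a dissection adds to every list.

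Choroid plexus, the epithelium that secretes cerebrospinal fluid, was the list with the lowest median. All 24 genes were lower in hetero-KO (median −0.78), 1 of them at least 2-fold, where 0.598% of all genes were. Their levels summed to 155 in WT against 118 in hetero-KO. The klotho gene Kl had levels of 4.41 and 2.84, the folate receptor Folr1 7.12 and 3.81 (log2 −0.90), the BMP antagonist Sostdc1 3.01 and 1.56 (−0.95) and the channel subunit Kcne2 4.94 and 2.75 (−0.85). Ttr, transthyretin, the most abundant product of this epithelium, had 88.0 and 78.6 (−0.16). At 4 months 23 of the 24 were lower (median −0.45). All 18 genes of motile cilia, which ependymal cells carry, were lower too (median −0.51; −0.45 at 4 months), such as Cfap73 (0.111 and 0.0539, −1.04), Tekt1 (1.52 and 1.0, −0.60) and the cilia regulator Foxj1 (0.788 and 0.654, −0.27). Among Hox and patterning genes 15 of 19 measured members were lower (median −0.26), with Six3 (−1.36), Zic1 (−1.22) and Zic4 (−1.14) among the 4 that were at least 2-fold lower. The other measured probes of Zic4 gave −0.66, −0.48 and −0.16. Otx2, a factor of choroid plexus, was also lower (3.23 and 1.83). Imprinted genes had a median of −0.07, with Cdkn1c at 5.35 and 2.70 (−0.98) and Magel2 at 0.237 and 0.0630 (−1.91). The part of plexus and ventricular tissue in the dissections was not tested.

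Cells of the brain's outer covering and vessels showed another direction. Of 20 meningeal fibroblast markers, 17 were higher in hetero-KO (median 0.43), and their levels summed to 18.3 in WT against 24.3 in hetero-KO. Besides Slc6a13 and Aldh1a2, the small leucine-rich proteoglycan Fmod (0.102 and 0.210, log2 1.04), the transporters Slc47a1 (1.0) and Slc22a6 (0.80) and decorin, Dcn (4.40 and 5.88, 0.42), were higher. The 3 lower members were Igf2, Bgn and Ogn. At 4 months 19 of the 20 were lower (median −0.30), so this list had opposite medians at the 2 ages. Border macrophages, which live in meninges and around vessels, had 13 of 14 measured markers higher (median 0.57). Their levels summed to 2.67 in WT against 3.55 in hetero-KO. Cd163 (0.0527 and 0.0998), Lyve1 (0.0183 and 0.0361), the lectin Clec10a (log2 1.07) and the chemokine Ccl8 (0.0525 and 0.156, log2 1.57) were among them, and Folr2 was lower (−0.54). Vascular endothelial markers had a median of 0.06 with 13 of 20 higher; the clotting factor carrier Vwf was higher by 0.83 and Cldn5, the tight junction claudin, had −0.06. Pericyte and smooth muscle markers had a median of 0.15. All 8 measured red blood cell genes were higher (median 0.28), such as Hba-a1 at 35.9 and 45.5, and the part of blood in the immune values below was not tested. In the authors' deposited table the meningeal, border macrophage and red blood cell lists had medians of −0.35, −0.19 and −0.21, the other direction.

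Genes that astrocytes switch on in reaction to injury were higher nearly throughout. Of 30 measured reactive astrocyte genes, 29 were higher in hetero-KO (median 0.39), 3 of them at least 2-fold, where 0.54% of all genes were. The levels summed to 55.6 in WT against 69.4 in hetero-KO. Lcn2 and Tgm1 led, followed by Lrg1, a secreted glycoprotein (0.181 and 0.526, log2 1.54), and Timp1, an inhibitor of matrix proteases (0.287 and 0.489, 0.77). Serpina3n had levels of 0.810 and 1.31 (0.69), vimentin, Vim, 4.51 and 6.01 (0.41) and Osmr 0.520 and 0.683 (0.39). Gfap, the filament that defines the reaction in tissue sections, had 8.07 and 8.43 (0.06). The single lower member was Stat3 (−0.06). At 4 months 20 of 29 were lower (median −0.10). Homeostatic astrocyte markers had a median of 0.05. In the authors' deposited table the reactive list had a median of −0.15, the other direction.

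Microglial and complement genes were higher by smaller amounts. Of 22 homeostatic microglia markers 20 were higher (median 0.22), with Tmem119 at 1.40 and 1.65, Trem2 at 3.92 and 4.71, C1qa at 2.24 and 2.99 and Cx3cr1 at 5.83 and 6.45. Of 26 measured genes of disease-associated microglia, 21 were higher (median 0.19). Cst7, a protease inhibitor (0.0969 and 0.213, log2 1.14), and the cholesterol hydroxylase Ch25h (1.09) were at least 2-fold higher. The integrin Itgax followed at 0.98, lysozyme, Lyz2, at 0.84 (5.54 and 9.95) and the pattern receptor Clec7a at 0.67 (0.357 and 0.567), while Apoe was at 82.4 and 81.0. Clec7a stood at 0.0836 and 0.0672 at 4 months, so both old arrays were above both young ones. All 18 measured complement genes were higher (median 0.28), from Masp1 (0.05) to Cfb (0.90), with C4b at 21.2 and 27.6 and C3 at 2.09 and 2.49. No complement gene was 2-fold apart. In the authors' deposited table the medians of homeostatic microglia, disease-associated microglia and complement genes were −0.08, −0.28 and −0.08, so their direction rests on the scanner files alone.

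Neutrophil and monocyte genes had 9 of 14 measured members higher (median 0.34). The calprotectin subunits S100a8 (0.0998 and 0.245, log2 1.29) and S100a9 (0.301 and 0.825, 1.46) and lactoferrin, Ltf (1.12), were at least 2-fold higher, where 0.54% of all genes were. Mpo, Elane and Mmp8 had 0.14, −0.01 and −0.11. At 4 months all 13 members measured there were lower (median −0.13). Of 26 measured chemokines, 18 were higher (median 0.16), with the monocyte attractants Ccl2 (0.0787 and 0.156, log2 0.98) and Ccl12 (0.81) and, in the other direction, Cxcl5 (0.646 and 0.273, −1.24). Nlrp3, the sensor of the inflammasome, was higher by 1.3 (0.0512 and 0.126), while Tnf had −0.07, Il6 0.23 and Il1b 0.45 at levels near background. Interferon response genes were higher for 28 of 34 members by little (median 0.09; Mx1 1.32 at a dim level, Isg15 0.02, Bst2 −0.60). MHC class I and class II lists had medians of 0.09 and 0.23, and lymphocyte genes −0.08. In the authors' deposited table the chemokine, MHC class I and MHC class II medians were −0.22, −0.12 and −0.47, the other direction.

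Genes induced by glucocorticoids, the adrenal stress hormones, were higher for 20 of 21 members (median 0.27). Sgk1, a kinase, had levels of 16.1 and 21.1 (log2 0.39), Tsc22d3, the leucine zipper GILZ, 7.21 and 9.85 (0.45), Fkbp5 3.27 and 3.93 (0.27), the metallothionein Mt2 61.3 and 81.4 (0.41) and Plin4 0.946 and 1.37 (0.53). At 4 months 14 of 21 were higher (median 0.14). Immediate early genes, which report neuronal activity, were higher for 30 of 36 members (median 0.14), and by the same count at 4 months (0.17). The pentraxin Nptx2 (0.365 and 0.685, log2 0.91), Dusp5 (0.43) and Npas4 (1.71 and 2.21, 0.37) were on the higher side, while Fos had 0.27 and Arc, at 16.9 and 17.0, 0.00. None was 2-fold apart.

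Markers of the dentate granule cells and the CA1, CA2 and CA3 fields had medians from −0.14 to 0.22. Of 22 dentate granule cell markers 16 were lower (median −0.14; −0.21 at 4 months), with Npnt (0.106 and 0.0624, log2 −0.77), desmoplakin, Dsp (1.46 and 0.900, −0.70), Lct (8.44 and 6.78, −0.32) and calbindin, Calb1 (9.10 and 7.56, −0.27). For Npnt, Dsp and Lct the 4-month levels were lower in hetero-KO too. CA1 pyramidal markers had a median of −0.04, although Wfs1, an endoplasmic reticulum protein of CA1, had 10.3 in WT against 6.13 in hetero-KO (−0.75), and 8.45 and 5.15 at 4 months. CA2 and CA3 markers had medians of 0.22 and 0.08; Bok, of the Bcl2 family, was at 6.92 and 11 (0.67) and Crym, the thyroid hormone binder crystallin mu, at 25.3 and 33.0 (0.38). Interneuron markers had a median of −0.02, with Gad1 at 8.96 and 8.47, Sst at 33.9 and 36.8 and Pvalb at 5.05 and 5.28, and with Calb2 as the single member 2-fold apart. Mossy cell markers had a median of 0.05, with measured members from Calb2, which is on this list too, at −2.36 to Ociad2 at 0.37. Oligodendrocyte genes had a median of 0.04 and their precursors −0.19, with 9 of 12 lower.

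Lists of neurons outside the hippocampal fields, chosen with earlier results of these data known, held several of the genes with large negative differences. Among 21 measured markers of olfactory bulb mitral and tufted cells, 7 were at least 2-fold lower, where 0.598% of all genes were, and none 2-fold higher (median −0.19): Lbhd2, Ctxn3, Sln, Ebf3, Lhx5 (−1.29), Lhx1 (0.134 and 0.0567, −1.24) and the glutamate transporter Slc17a6 (0.479 and 0.205, −1.23). Eomes, Ebf2 and Zar1 belong to the same list and were measured in WT alone. Other markers of the list, Cdhr1 (0.464 and 0.557), Tbx21 (0.0214 and 0.0150), Doc2g (0.211 and 0.163) and Reln (1.5 and 1.64), did not share the fold. The summed level of the list was 206 in WT against 222 in hetero-KO, of which Cck and Olfm1 made up most. Cajal-Retzius cells, the reelin-making cells along the hippocampal fissure, share Ebf2, Eomes, Sln, Ebf3, Calb2, Lhx5 and Lhx1 with these lists; 5 of 17 measured markers were at least 2-fold lower (median −0.16), while Trp73, a defining factor of theirs, had 0.198 and 0.172 and Ndnf 0.550 and 0.466. Olfactory bulb granule and periglomerular markers were lower for 21 of 26 members (median −0.20), with Igfbpl1, Calb2, Ecel1 (−1.26), Trh (−1.12) and the interneuron factor Sp8 (0.307 and 0.146, −1.07) at least 2-fold lower. Omp, the defining olfactory nerve marker, had 0.0807 and 0.0999. The part of tissue outside the hippocampus in these values was not tested. In the authors' deposited table Lbhd2, Ctxn3, Sln, Igfbpl1 and Calb2 were not lower (log2 0.17, 0.91, 0.41, 0.52 and 0.03).

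Thalamus and striatum lists, which track what a dissection includes, were nearer to zero than at 4 months. Thalamus and habenula markers had a median of 0.07 (−0.30 at 4 months) and a summed level of 25.2 in WT against 23.5 in hetero-KO. Striatum markers had −0.11 (0.86 at 4 months) with summed levels of 45.8 and 47.7, against 44.5 and 83.8 at 4 months. Subiculum markers had a median of −0.14 with Nts, neurotensin, at 0.362 and 0.159 (−1.19). Hypothalamic peptide genes were lower for 17 of 27 members (median −0.17); Trh had 0.115 and 0.0530, and hypocretin, Hcrt, −0.76. Of 11 measured pituitary hormone genes, Gh, Cga and Prl were at least 2-fold lower, where 0.598% of all genes were. Pomc and Tshb had 0.07 and 0.30.

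**Figure D3:**
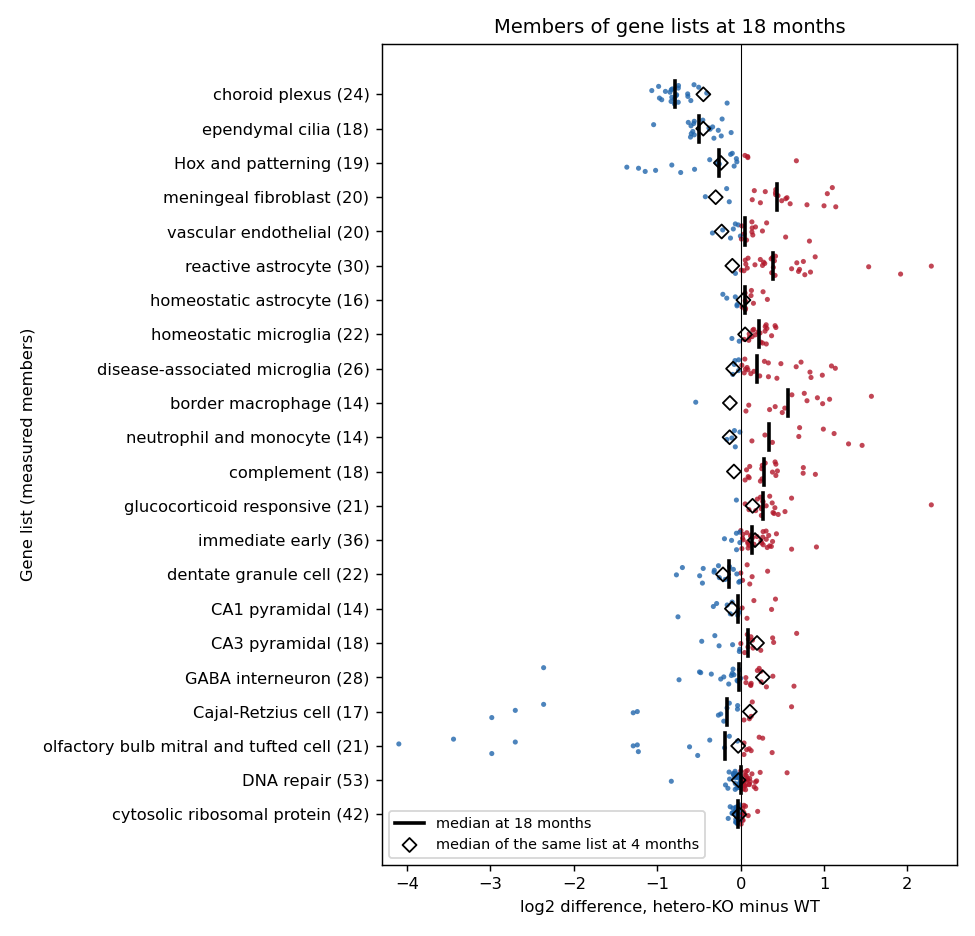
Log2 difference of hetero-KO from WT at 18 months for each measured member of 22 gene lists (points; red above zero, blue below), with the list's median at 18 months as a black bar and its 4-month median as an open diamond. Choroid plexus (median −0.78) and ependymal cilia (−0.51) lie wholly on the negative side, and reactive astrocyte (0.39), border macrophage (0.57) and complement (0.28) genes lie nearly all on the positive side.

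Known targets of the repressor and general cell functions completed the lists. Among Id, proneural and Notch effector genes, 8 of 17 measured members were higher (median −0.03). Neurog2, a proneural factor that the repressor silences in cortex, had a level of 0.0419 in WT against 0.0979 in hetero-KO (log2 1.22), and 0.0452 and 0.132 at 4 months. Hes1, a Notch effector, had 0.139 and 0.293 (1.07), and 0.111 and 0.219 at 4 months. Hes5, a related effector, was lower (2.67 and 1.57, −0.76), and Id1, Id2, Id3 and Id4 had 0.11, 0.05, 0.17 and −0.21. DNA repair genes split evenly, 27 higher and 26 lower of 53 (median 0.00), and p53 targets had a median of 0.12, with Cdkn1a, the cell cycle inhibitor p21, at 0.225 and 0.343 (0.61). Cytosolic ribosomal proteins had −0.03, nuclear respiratory chain genes 0.03, lysosomal genes 0.04, heat shock genes 0.06, circadian clock genes 0.03 and synaptic vesicle genes 0.09. Glutamate receptors had 0.00 with Grm8 at −0.87, potassium channels 0.05 with Kcnj10, the astrocytic inward rectifier, at 0.39, and GABA and glycine receptors −0.02. Among amine receptors and enzymes (median −0.07), Hrh3 was the single member 2-fold higher and the dopamine receptor Drd4 (−1.14) the single member 2-fold lower. Htr2c, a serotonin receptor of choroid plexus and neurons, was at 3.37 and 1.93 (−0.81).

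Extracellular and patterning signals were balanced as lists, with a few members apart. Of 51 collagen and matrix genes, 29 were higher (median 0.06); the glypican Gpc3 (0.148 and 0.373, log2 1.33), Fbln2 and Col12a1 (0.0541 and 0.119, 1.14) were at least 2-fold higher and Col6a3 (0.469 and 0.167, −1.49) lower. Gpc3 had 0.167 and 0.453, and Col12a1 0.0541 and 0.108, at 4 months. Wnt genes had a median of 0.00, with Wnt6 at 1.3, the Wnt inhibitor Frzb at 0.73 (0.661 and 1.09) and Wnt2 at −0.73. BMP and TGF-beta genes had 0.02, with the BMP antagonist Grem1 at 0.410 and 0.215 (−0.93) and 0.353 and 0.152 at 4 months. Axon guidance genes had 0.03 with Sema3f at −0.75.

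Of the 149 higher genes, 133 were also measured on both 4-month arrays, and 67 of those (50.4%) were higher there, where 44.2% of all genes were. At least 2-fold higher at both ages were 14 (10.5%), against 0.53% of all genes at 4 months. Of the 165 lower genes 158 were measured at 4 months, 93 (58.9%) lower there as 55.8% of all genes were, and 11 (6.96%) at least 2-fold lower, against 0.556%. Besides the 2 transcripts beside Zbtb18, the 2-fold higher genes of both ages included Hrh3, Fbln2, Gpc3, Igf2os, Neurog2, the actin-severing protein Scin (log2 1.11 at 18 months and 1.27 at 4 months), Slamf8 (1.42 and 1.37) and Pirt (1.63 and 1.13). Lower at both ages were Zic4 (−1.14 and −1.06), Cxcl5 (−1.24 and −1.04), Prdm12 (−4.45 and −1.45), the adhesion receptor Adgrd1 (−1.94 and −1.32) and the cilia gene Cfap58 (−1.02 and −1.37). In the opposite direction by 2-fold at 4 months were 4 of the 133 higher and 12 of the 158 lower genes. Of all genes, 0.556% were 2-fold lower and 0.53% 2-fold higher at 4 months. Thus 2-fold differences at 4 months were more frequent among these genes in both directions. The shares of all genes are not matched for level, and dim genes were more often 2-fold apart at 18 months. Across 27346 genes measured on all 4 arrays the differences of the 2 ages had a correlation of 0.20, and of 0.34 over 18627 genes with a mean level of at least 0.1; the arrays share a slide, genes are not independent, and no p is given.

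For each gene, the old array farther from the mean of the 4-month arrays was then found. Over all 27346 genes it was the hetero-KO array for 55.0% and the WT array for 45.0%. Among the 133 higher genes the hetero-KO array of 18 months was the farther one for 100 (75.2%) and the WT array for 33. Among the 158 lower genes it was the WT array for 97 (61.4%) and the hetero-KO array for 61. The measure names 1 of the 2 arrays for every gene, so it does not show that the other lay with the young arrays.

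**Figure D4:**
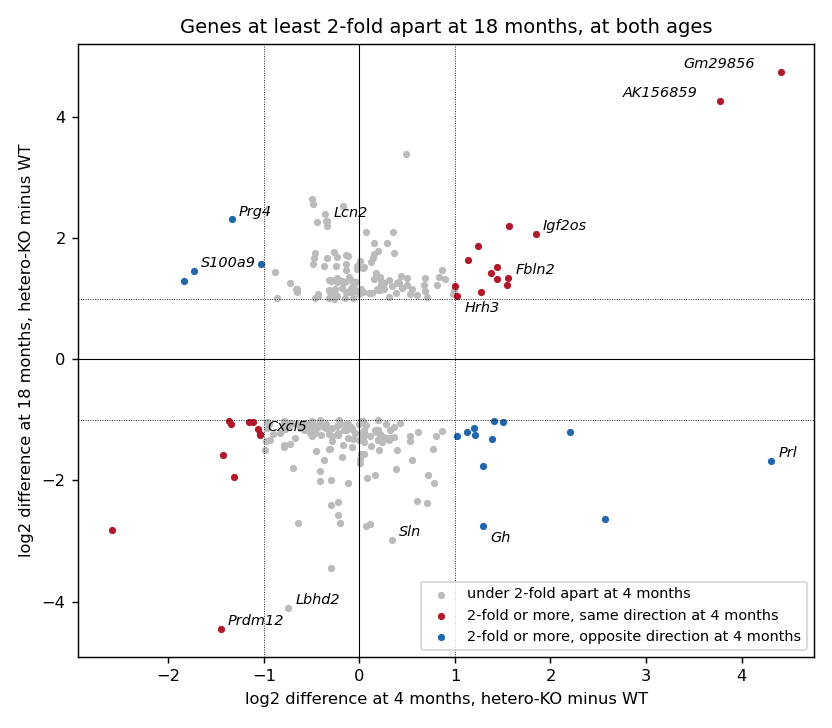
Log2 difference of hetero-KO from WT at 18 months (vertical) against that at 4 months (horizontal) for the 291 genes at least 2-fold apart at 18 months and measured on all 4 arrays. Red points were at least 2-fold apart in the same direction at 4 months (14 higher, 11 lower), blue points in the opposite direction (4 higher, 12 lower), and grey points under 2-fold apart at 4 months.

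Genes around the targeted locus were then counted by distance, with no test of the difference in shares. Within 1 Mb of the Zbtb18 probe 2 of 25 measured genes (8.00%) were at least 2-fold apart, both of them the transcripts named above, within 5 Mb 4 of 141 (2.84%) and within 10 Mb 7 of 267 (2.62%). On the rest of chromosome 1 beyond 20 Mb it was 1.45%, and on other chromosomes 280 of 25765 genes (1.09%). At 1.5-fold, where 4.71% of all genes were apart, the shares were 15 of 141 (10.6%) within 5 Mb and 4.61% on other chromosomes. With the normexp background 2 of 267 genes within 10 Mb (0.749%) were 2-fold apart, where 0.239% of all genes were. Of those 15 genes, 14 had the same direction at 4 months, compared with 728 of 1127 on other chromosomes. They included Slamf8, Efcab2 (0.626 and 0.400, −0.65), the pseudogene Hmga2-ps1 (0.76) and Pld5 (0.125 and 0.0425, −1.56), of which Pld5 did not share its direction with 4 months. Slightly farther away, Adamts4, a proteoglycan-cleaving protease of oligodendrocytes, had levels of 5.37 and 2.72 (−0.98; −1.27 at 4 months). Ifi202b, measured in hetero-KO alone at both ages, lay 3.49 Mb away and Gm36904, at least 4.34-fold higher, 0.142 Mb away. Flanking sequence inherited with the allele was not tested.

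**Figure D5:**
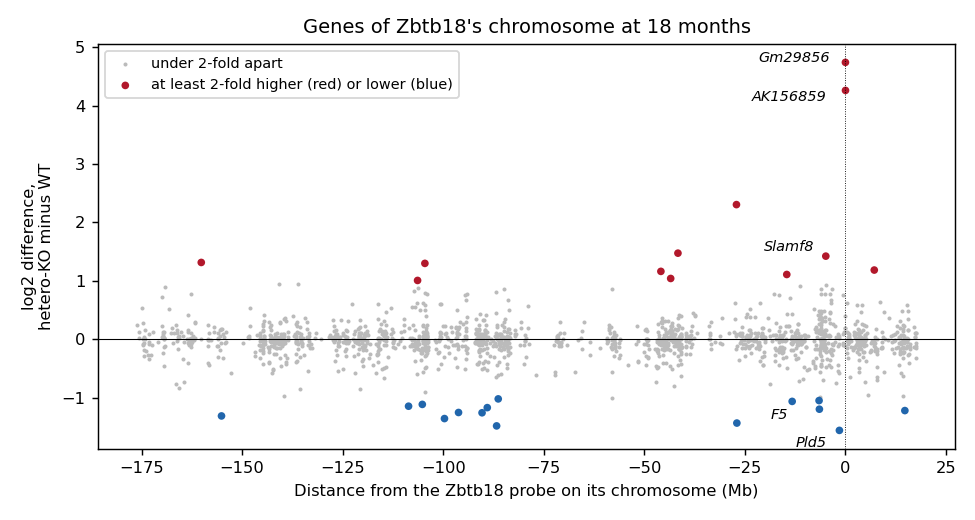
Log2 difference of hetero-KO from WT at 18 months (vertical) for measured genes of the chromosome that holds Zbtb18, by distance in Mb from the Zbtb18 probe (horizontal, dotted line at 0); coloured points are at least 2-fold apart. The 2 points above 4 are Gm29856 and AK156859, 10.5 and 25.6 kb from the Zbtb18 probe.

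Promoters were searched for the core ACATCTG of the repressor's binding site on either strand, from 250 bases before to 50 after each start in the RefSeq table (GRCm38.p6). The core contains the E-box CATCTG, which many helix-loop-helix factors bind. Of 27609 measured genes 15208 had a promoter in the table, some with several starts, and 592 genes (3.89%) held the core in at least 1. Of 76 genes 2-fold higher 6 held it (7.89%, 95% Clopper-Pearson interval 2.95% to 16.4%), and of 84 genes 2-fold lower 5 (5.95%, 1.96% to 13.3%). Smim22 counts once here, since its overlapping starts share the same copy. The intervals cover counting error alone. The intervals of both directions overlap. The promoters of these genes also held less G and C (medians 50.7% and 51.8%, against 58.3% over all), and CATCTG alone was found in 22.2% and 28.4% of promoters, against 13.9%. The promoters below are a selection, not all, of those with the core among genes with an official symbol in either direction. They show where the core lies. Bases before the start are given 5′ to 3′ on the gene's strand, with the core, or its reverse complement CAGATGT, in capitals.
Fbln2 (higher, chr6:91212514-91212763, plus): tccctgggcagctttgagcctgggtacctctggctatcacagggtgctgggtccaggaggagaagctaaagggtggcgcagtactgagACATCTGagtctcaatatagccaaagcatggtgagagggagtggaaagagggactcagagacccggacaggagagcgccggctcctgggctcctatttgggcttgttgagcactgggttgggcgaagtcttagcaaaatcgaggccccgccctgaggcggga
Fmod (higher, chr1:134037004-134037253, plus): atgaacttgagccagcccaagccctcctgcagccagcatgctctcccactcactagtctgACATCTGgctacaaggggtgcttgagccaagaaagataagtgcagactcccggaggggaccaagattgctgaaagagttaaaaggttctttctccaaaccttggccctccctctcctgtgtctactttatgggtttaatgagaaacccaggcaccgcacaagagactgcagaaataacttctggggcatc
Trh (lower, chr6:92244651-92244900, minus): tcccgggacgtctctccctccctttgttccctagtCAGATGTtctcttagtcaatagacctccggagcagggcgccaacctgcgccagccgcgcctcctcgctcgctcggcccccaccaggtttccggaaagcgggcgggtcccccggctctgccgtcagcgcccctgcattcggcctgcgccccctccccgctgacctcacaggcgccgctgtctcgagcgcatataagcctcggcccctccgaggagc
Smim22 (lower, chr16:5007066-5007315, plus): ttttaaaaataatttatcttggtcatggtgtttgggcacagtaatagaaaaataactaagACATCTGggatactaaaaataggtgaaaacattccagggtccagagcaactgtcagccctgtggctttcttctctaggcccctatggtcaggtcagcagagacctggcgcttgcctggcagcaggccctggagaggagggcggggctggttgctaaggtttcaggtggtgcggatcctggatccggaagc
In Fbln2 the core began 162 bases before the start, in Fmod and in this start of Smim22 190 bases, and in Trh its complement 215 bases. Of these 4 genes only Fbln2 was at least 2-fold apart at 4 months. A match of letters is a description, and no binding was measured.

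Where a gene had several probes, they bore out its difference in part. Of the genes at least 2-fold apart, 43 had 2 or more measured probes, and in 28 (65.1%) every measured probe had the same direction, in 9 every one at least 2-fold. Postn, periostin, was lower by 1.45 to 1.67 with 3 probes and higher by 0.28 with the remaining one. Ecel1, Drd4 and Col12a1 were 2-fold apart with 1 probe, while their other measured probe gave −0.30, −0.50 and 0.35. For the other genes 2-fold apart the difference rests on a single measured probe.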

How the data were processed

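Hippocampal RNA was measured on one-colour Agilent mouse arrays, 1 pooled array per group. The deposited scanner files hold each spot's processed signal, an intensity on a linear scale; they were made with Agilent Feature Extraction 11.5.1.1, per the submitters' processing notes, on mouse build mm9, per the file headers. The deposited table of all samples holds signals as a ratio to each array's 75th percentile, per the labels and its values, and served as an alternative.

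Control spots were left out, and signals were divided by the array's 75th percentile. Spots of a probe were averaged. A gene was represented by its brightest probe measured on both 18-month arrays. Symbols were updated through RefSeq accessions. With 1 array per group no test was made; a difference is the log2 of hetero-KO over WT, and 2-fold is a rule of size. Named genes were the 15 largest each way with an official symbol, the 10 largest each way with a level of at least 1 on either array, the 5 largest bounds each way, Zbtb18 and its neighbours. Some genes that meet these rules are not reported here. Further genes named inside lists, at both ages or by position were chosen after their values were seen. Members and lists were chosen with earlier results of these data known. The scripts (python 3.11.15, pandas 2.3.3, R 4.3.3, limma 3.58.1) were tested on simulated data.

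Alternatives were the normexp background (limma), quantile normalization, median centring, a percentile without outlier spots, no filter on dim probes, all 4 arrays measured, the mean over probes and the deposited table. Number of arrays limits the precision.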

Additional observations from a re-analysis of the deposited data

Results flagged for a closer look

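In 12 reported genes with an official symbol hetero-KO lay at least 2-fold from WT at both ages, in opposite directions. The difference between the ages was not tested, since each group is 1 pooled array. The 4-month pair also differed in Y-linked genes and the 18-month pair did not. Age therefore cannot be told apart from the sex makeup of the pools in these genes.

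Higher at 18 months and lower at 4 months were 4 genes. S100a8 and S100a9, the calprotectin subunits of neutrophils, had log2 differences of 1.29 and 1.46 at 18 months and of −1.84 and −1.74 at 4 months. The chemokine Ccl8 had 1.57 and −1.03, and Prg4, lubricin, 2.30 and −1.34.

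Lower at 18 months and higher at 4 months were 8 genes. The pituitary hormones Gh and Prl had −2.75 and −1.67 at 18 months and 1.29 and 4.31 at 4 months. Ecel1, a neuronal endopeptidase relative, had −1.26 and 1.02, and Slc10a4, a vesicular transporter relative, −1.04 and 1.51. Wfdc6b had −1.77 and 1.29, Atp6ap1l −1.20 and 1.12, the desmoglein Dsg1c −1.13 and 1.20, and Rbm44 −1.02 and 1.41.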

How the results depend on the processing

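No paired analysis was possible because each group holds 1 array. Quantile normalization, median centring and a percentile without outlier spots kept all 49 named genes and all 62 list medians within the limits set for them, and moved the median of all genes by at most 0.03. The counts of genes at least 2-fold higher and lower were 25 and 41 of 27609 with the normexp background. With no filter on dim probes they were 1071 and 1071 of 37295. Among 18641 genes with a mean level of at least 0.1, a limit chosen after seeing the data, they were 36 and 42. Normexp moved 29 of the 49 genes toward zero and reversed 0. It gave the border macrophage median 0.34, and 0.749% of genes within 10 Mb of Zbtb18 2-fold apart. The mitral and tufted median was −0.44 with no filter. With CATCTG as the motif, 22.2% and 28.4% of promoters of higher and lower genes held it.

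The authors' deposited table moved most. List medians there were −0.18 for ependymal cilia, −0.35 meningeal fibroblast, −0.12 pericyte, −0.15 reactive astrocyte, −0.079 homeostatic microglia, −0.28 disease-associated microglia, −0.19 border macrophage, 0.025 neutrophil, −0.21 red blood cell, −0.081 complement, −0.22 chemokine, −0.12 MHC class I, −0.47 MHC class II, −0.18 oligodendrocyte, 0.21 CA1, 0.12 subiculum, 0.066 mitral and tufted, −0.33 thalamus, −0.36 striatum, 0.10 hypothalamic and −6.16 Y-linked genes. Genes on the other side of zero there were Il1f10 (−0.19), Prg4 (−0.78), Lcn2 (−0.36), Cxcl1 (−0.44), Ttn (−0.084), Tgm1 (−0.67), Pirt (−1.14), Banf2os (−0.52), Slc6a13 (−0.38), Aldh1a2 (−0.37), Syt10 (−2.05), Lbhd2 (0.17), Ctxn3 (0.91), Sln (0.41), Gh (0.53), Igfbpl1 (0.52), Calb2 (0.033), Wdfy1 (0.35), Ccl21a (0.33) and Fam205a2 (0.0896). Gjb2 (−0.24) and Zbtb18 (−0.044), less than 2-fold apart in the scanner files, were on the other side of zero there too. The cause was not tested. Genes near background carry the largest spot errors, and 1 pool per group leaves variation between mice unmeasured.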
